A study of Homo sapiens with 3 samples.

Results

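The interferon regulatory factors (IRFs) are a family of transcription factors that share a DNA-binding domain at the amino-terminal end. The members described here are IRF1, IRF2, IRF3, IRF4, IRF5, IRF7, IRF8 and IRF9, taken as every transcript probe that the array lists under those gene names. They came to 8 genes and 10 probes, of 58201 probes and 22705 genes with a symbol. IRF3 and IRF9 had 2 probes each and the other 6 genes had 1. The rule reads gene names only, but the family was taken up with earlier results of these data known.

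The cells were THP-1, a human cell line from a monocytic leukaemia, made macrophage-like with the phorbol ester PMA (100 ng/ml, 24 to 36 h) and rested overnight in new medium. Ctrl cells, labelled as normal THP-1, were collected at 4 h, the time given for all arrays. IMQ cells received imiquimod, an agonist of the endosomal receptor TLR7 that is used to model psoriasis. IMQ+DMD cells received DMD, a benzenoid from the fungus Antrodia cinnamomea, before IMQ. The labels write the third condition as IMQ+X, and X is taken here to be DMD, the sole compound that the labels name beside IMQ and PMA. All 3 conditions shared the cell line, the PMA differentiation and the slide. The labels used here give no dose of either compound and there was no arm with DMD alone.

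Each condition was a single array, so no difference below has a replicate check and no p-value can be given. All 3 comparisons are built from the same 3 arrays and are not independent of each other. A THP-1 culture is 1 line differentiated in a dish, and fewer cells of a state cannot be told apart from less RNA per cell. Of the 9 monocyte and macrophage markers listed, 7 were analysed, and all 7 were well above background on every array. Their summed normalized intensity was 288504 on the Ctrl array, against 220490 with IMQ and 198621 with IMQ+DMD, but most of that sum is the CSF1R probe (224896, 172912 and 153691). CD14 and FCGR1A stepped down in the same way, ITGAM and CD163 were lowest with IMQ alone, SPI1 (PU.1) was highest with IMQ+DMD (18093, 18655 and 19406) and so was MRC1 (139, 97.5 and 152). By the scanner's spot ratings, 72.0%, 66.6% and 71.9% of transcript probes were well above background on the Ctrl, IMQ and IMQ+DMD arrays. The median signal of transcript spots was 94.5, 61.8 and 76.4.

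IRFs sit at both ends of innate signalling. Downstream of TLR7 and the adaptor MyD88, IRF5 and IRF7 are activated by phosphorylation and can induce type I interferons and inflammatory cytokines, while IRF3 is best known for the pathways that pass through the kinase TBK1. IRF9 is the DNA-binding part of the complex that answers type I interferon, and binds the interferon-stimulated response element (ISRE). IRF1 is itself induced by interferon through gamma-activated sites (GAS) in its promoter, IRF2 competes for many of its sites, and IRF4 and IRF8 pair with the ETS factor PU.1 in haematopoietic cells. Activation of IRF3, IRF5 and IRF7 is a change of the protein, which an array of transcripts does not measure.

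The array reads each transcript at 1 short stretch, so the probes whose values differ most are shown first. The first 30 bases of each are printed 5′ to 3′ in lower case, as the array's own annotation gives them, with positions on hg19. Exon and UTR were not assigned. The IRF4 probe lies at chr6:411002-411061 on the plus strand and the IRF8 probe at chr16:85956052-85956111 on the plus strand. The IRF9 probes lie at chr14:24635500-24635559 and chr14:24636167-24636226, both on the plus strand, and are shown because they gave different values.
IRF4: ttttgtattgattttcacagctttgaggaa
IRF8: gctgaagtgttcataagataacaataggct
IRF9, first probe: gataattctcagtagttgtccgtgataatc
IRF9, second probe: gacctgagaacagaggagtcagagagaaga

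The other probes were listed at chr5:131819442-131819501 (IRF1, minus strand), chr7:128589323-128589382 (IRF5, plus strand) and chr11:612643-612702 (IRF7, minus strand). The first IRF3 probe spans 1179 bases of the genome for its 60 bases, at chr19:50164080-50165258 on the minus strand, and so crosses a splice junction, while the second lies within chr19:50164025-50164084. The IRF2 probe is listed at chr4:185308860-185308875 on the minus strand, which covers only 16 of its 60 bases.

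Of the 8 IRF genes, 1 was at least 2-fold higher and 1 at least 2-fold lower after IMQ than in Ctrl. Over all 19198 genes compared, 4.31% were at least 2-fold higher and 4.60% at least 2-fold lower. With 8 members, 1 gene in a direction is no result about the family. The gene that was higher was IRF4, which in mature macrophages and dendritic cells is known for alternative activation programmes. The gene that was lower was IRF8, a lineage factor of monocytes and dendritic cells. The other 6 members lay between -0.38 and 0.39 on the log2 scale, which is at most 1.31-fold. The median over the 8 members was -0.08, against -0.03 over all genes.

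IRF4 had a normalized intensity of 3.72 in Ctrl, 81.7 after IMQ and 29.1 with IMQ+DMD. The Ctrl spot was not well above background, and the other two were. Set against the lowest signal that counted as measured on the Ctrl array, 16.5, IRF4 was at least 4.95-fold higher after IMQ and at least 1.77-fold higher after IMQ+DMD. The first bound came to 2.31 on the log2 scale. It was 1.51 with bright spike-in scaling, 1.70 without normalization and 1.03 when background was modelled with normexp. The second bound came to 0.82. It was 0.32 with normexp, 0.55 without normalization and 0.93 with 75th-percentile scaling. Between the treated arrays both IRF4 values were measured, and IMQ+DMD was 2.80-fold lower than IMQ, a log2 difference of -1.49 with a technical SD of 0.35. That SD comes from probes printed at 10 spots on each array, taken at like brightness. It covers noise within an array and not the spread between cultures. IRF4 was dim on every array, where repeated spots scatter most. The 2-fold call between the treated arrays was lost with normexp (log2 difference -0.71) and when arrays were scaled to 7 bright spike-in controls (-0.93). The direction was the same under every alternative that was run.

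IRF8 had a normalized intensity of 1811 on the Ctrl array, 817 with IMQ and 568 with IMQ+DMD. Its spot was well above background on all arrays. It was highest in Ctrl and lowest with both compounds. IMQ was 2.22-fold lower than Ctrl, a log2 difference of -1.15 (technical SD 0.07). IMQ+DMD was 1.44-fold lower than IMQ (log2 -0.52, technical SD 0.08) and 3.19-fold lower than Ctrl (log2 -1.67, technical SD 0.08). In the last comparison, 314 genes, or 1.58%, had a lower value. IRF8 was lower in each of these comparisons under all the scalings tried and with normexp. The values ran from -1.75 to -1.07 for IMQ against Ctrl and from -0.60 to -0.32 for IMQ+DMD against IMQ. Of the 7 macrophage markers, CSF1R, CD14 and FCGR1A had the same order over the arrays as IRF8 and the other 4 did not. Their part in the result was not tested.

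**Figure D1:**
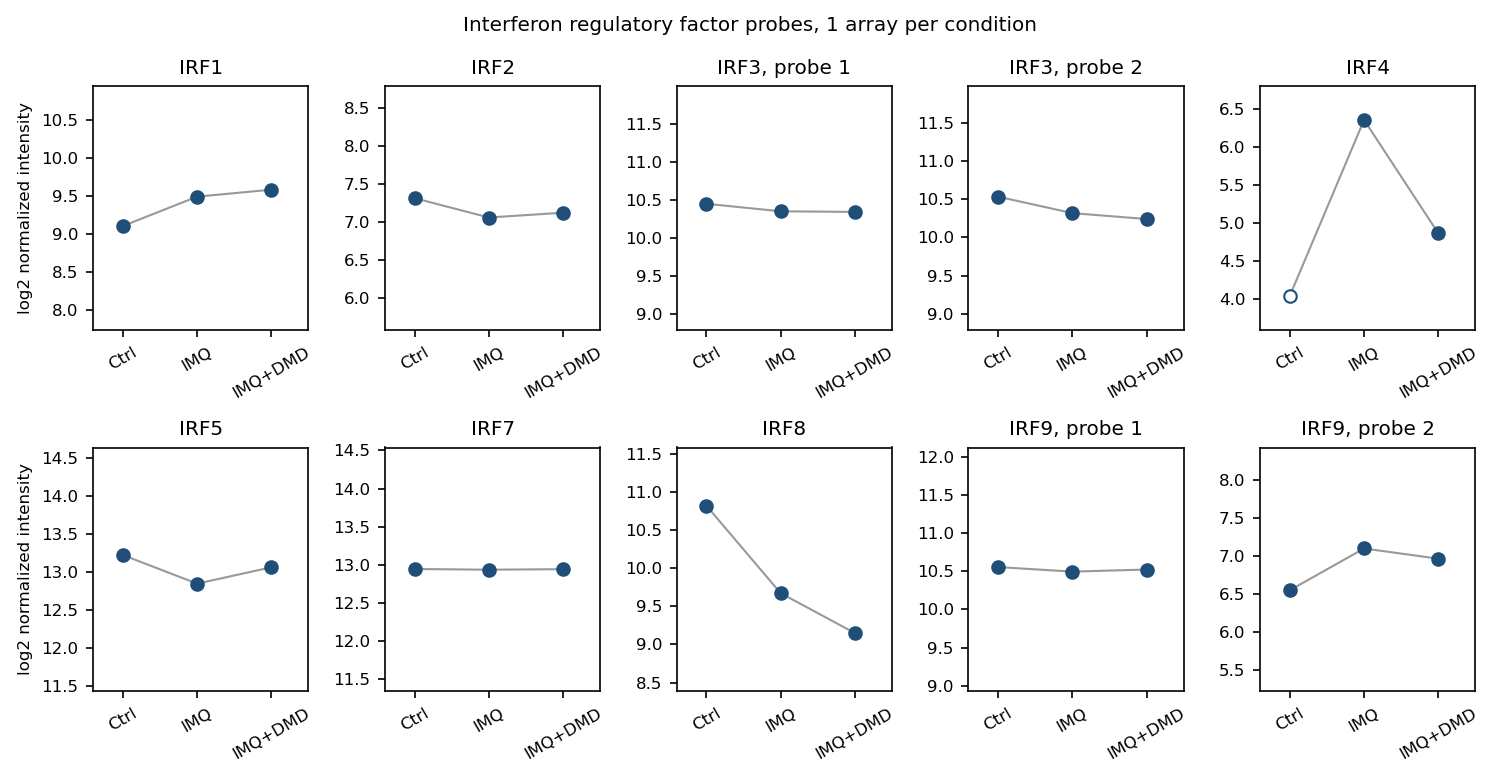
Log2 normalized intensity of the 10 IRF probes on the Ctrl, IMQ and IMQ+DMD arrays, each panel with its own position on the axis but the same height in log2 units. Filled points are well above background, and the open point is the Ctrl value of IRF4, drawn at the lowest measured signal of its array. IRF4 peaks after IMQ and IRF8 steps down, from 1811 to 817 to 568, while the IRF3 and IRF7 panels are nearly flat.

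IRF1 had a normalized intensity of 550 in Ctrl, 719 after IMQ and 765 with IMQ+DMD. The IMQ value was 1.31-fold higher than Ctrl, a log2 difference of 0.39 with a technical SD of 0.07, but its sign turned without normalization (-0.03) and with bright spike-in scaling (-0.22), where the median of all genes was -0.49 and -0.68. Relative to that median IRF1 lay between 0.36 and 0.46 in every scaling and background model. Between the treated arrays IRF1 differed by 1.07-fold. IRF2, the competitor of IRF1 at shared sites, had 159, 133 and 139 in the same order, and its difference of -0.25 between IMQ and Ctrl had a technical SD of 0.19. IRF2 was just past 2-fold lower only with bright spike-in scaling, where it stood at -0.32 relative to the median of all genes.

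IRF5, the member most tied to inflammatory cytokines downstream of MyD88, had 9555 in Ctrl, 7365 after IMQ and 8547 with IMQ+DMD. IMQ was 1.30-fold lower than Ctrl (log2 -0.38, technical SD 0.06), and IMQ+DMD was 1.16-fold higher than IMQ (log2 0.21, technical SD 0.06). IRF5 kept these directions under every scaling tried, although the value for IMQ+DMD against IMQ went down to 0.03. IRF7, which amplifies type I interferon production, had 7879, 7829 and 7866. Its log2 differences of -0.01 between IMQ and Ctrl and 0.01 between the treated arrays were smaller than the technical SD of 0.06, and their sign changed with the scaling.

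IRF3 is present in most cells and is activated without new synthesis. Its first probe had 1401 in Ctrl, 1308 after IMQ and 1301 with IMQ+DMD, and its second probe had 1484, 1278 and 1211. Both probes were a little lower after IMQ, with log2 differences of -0.10 and -0.22 (technical SD 0.07 each). IRF9 had 1506, 1445 and 1473 at its first probe, within 1.04-fold. Its second probe, which has no RefSeq transcript among its 3 listed records, had 93.7, 137 and 125. There the IMQ value was 1.46-fold higher than Ctrl (log2 0.55, technical SD 0.23), against -0.06 for the first probe, so the 2 IRF9 probes disagree in sign.

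**Figure D2:**
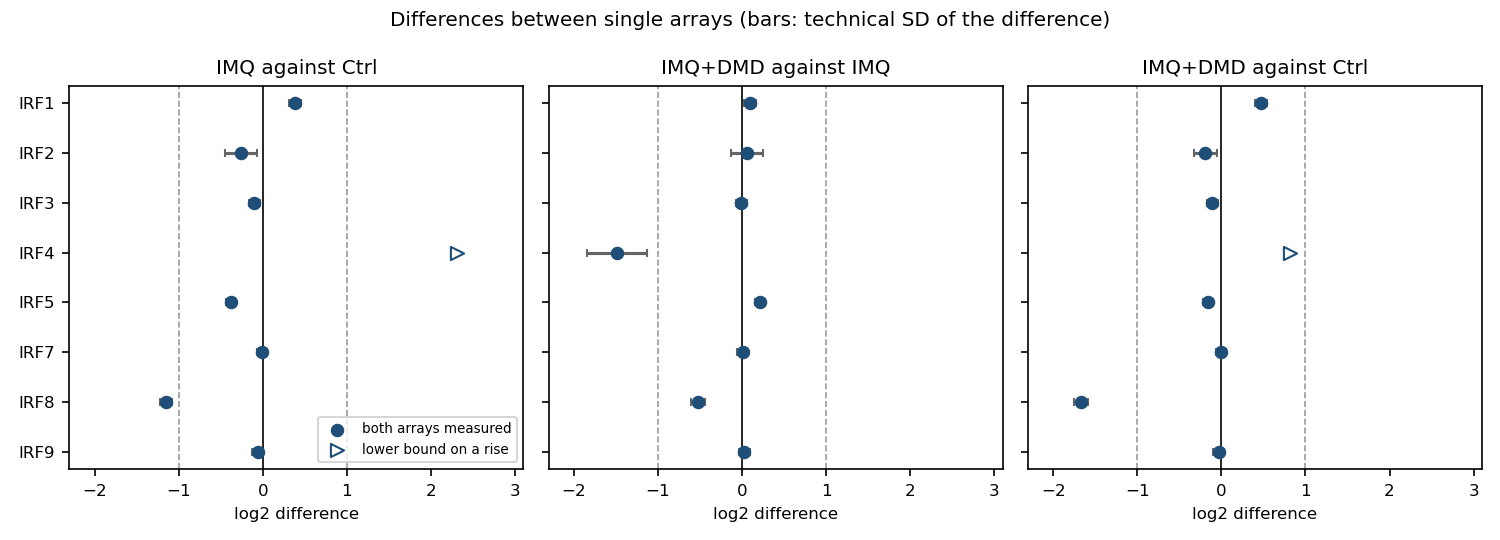
Log2 difference of each IRF gene between single arrays in the 3 comparisons, with bars for the technical SD of the difference and dashed lines at 2-fold. Open triangles are lower bounds for IRF4, whose Ctrl spot was not well above background, and carry no bar. IRF4 and IRF8 are the only members past a 2-fold line, IRF4 at 2.31 or more and IRF8 at -1.15 for IMQ against Ctrl.

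Between IMQ+DMD and IMQ, 0 of the 8 members were at least 2-fold higher and 1, IRF4, was at least 2-fold lower. Over 19137 genes, 0.716% were at least 2-fold higher and 0.914% at least 2-fold lower, and 38 genes had a larger fall than IRF4. Of the members, 7 lay within 1.5-fold, and the median was 0.02 against -0.02 for all genes. Between IMQ+DMD and Ctrl, 0 members were at least 2-fold higher and 1, IRF8, was at least 2-fold lower, where 3.43% and 6.12% of 19831 genes passed. The median there was -0.07 against 0.00.

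How the values depend on the scaling matters here, because the arrays differed in brightness. Without normalization the median of all genes was -0.49 for IMQ against Ctrl. With the spike-in controls, which are synthetic RNAs added to the labelling reaction, it was -0.41 over all 10 probes and -0.68 over the 7 bright ones. Under those scalings every member stood lower after IMQ than in the quantile-normalized values, as the median of all genes did. Relative to that median, IRF3, IRF5, IRF7 and IRF9 lay at -0.01, -0.24, 0.13 and 0.03 without normalization. In the quantile-normalized values they lay at -0.07, -0.35, 0.02 and -0.03. IRF2 and IRF4 instead went down without normalization, from -0.23 to -0.33 and from 2.34 to 2.18.

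**Figure D3:**
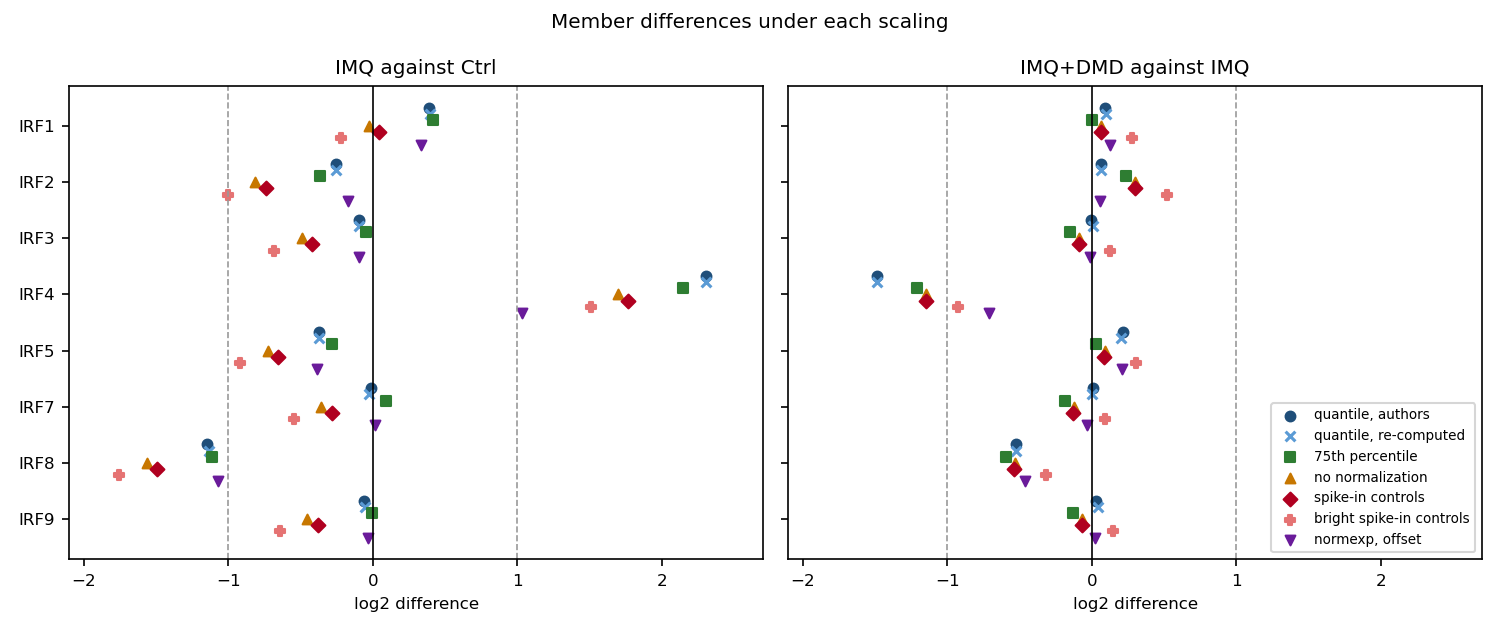
Log2 difference of each IRF gene under the different scalings, IMQ against Ctrl on the left, IMQ+DMD against IMQ on the right, with 1 symbol for each scaling or background correction and dashed lines at 2-fold. IRF8 stays left of 0 in both panels (-1.75 to -1.07 in the left panel), IRF4 stays right of 0 on the left and left of 0 on the right, and IRF1 and IRF7 fall on both sides of 0 on the left.

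The nearest profiles to IRF8, by distance in the differences IMQ against Ctrl and IMQ+DMD against IMQ among 18335 genes, were RAET1E-AS1 (-1.17 and -0.52), TNFAIP8L3 (-1.18 and -0.51) and C3orf58 (-1.19 and -0.51). With 3 arrays these are descriptions of 2 numbers.

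The genes that feed into the IRFs were taken from a list of 14 from TLR7 and TLR8 to the kinases. TLR7, the receptor that imiquimod engages, had 605 in Ctrl, 91.3 after IMQ and 53.8 with IMQ+DMD. It was 6.63-fold lower after IMQ than in Ctrl, and IMQ+DMD was 1.70-fold lower again. TLR8, its neighbour and close relative, had 47.6 in Ctrl and was not well above background after IMQ (19.2) or IMQ+DMD (3.95). In the deposited values IMQ+DMD was thus at least 2.81-fold lower than Ctrl, but the 2-fold call was lost with normexp (-0.54). For IMQ the bound lay just short of 2-fold in the deposited values and just past it with the re-computed quantile normalization. It was also past 2-fold with 75th-percentile scaling (-1.25), without normalization and under both spike-in scalings, but not with normexp (-0.43). In the deposited quantile-normalized values no gene of the list apart from TLR7 passed 2-fold after IMQ, and the list median was -0.19. Another probe of UNC93B1, which carries TLR7 to the endosome and is named after its values were seen, was just past 2-fold lower (2830 against 1408). The probe that stood for the gene was past 2-fold only without normalization and under the spike-in scalings.

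Over all genes compared, 4.60% were at least 2-fold lower after IMQ and 4.31% at least 2-fold higher. Of the transcription partners of IRF4 and IRF8, 1 of 7 was at least 2-fold lower after IMQ and 0 were at least 2-fold higher. That gene was BATF, an AP-1 family protein that pairs with IRF4 and IRF8, at 14905 in Ctrl, 7107 after IMQ and 7688 with IMQ+DMD, or 2.10-fold lower after IMQ, a call that was lost with 75th-percentile scaling (-0.95). SPIB, a partner named after its values were seen, was past 2-fold lower without normalization (-1.44) and under both spike-in scalings. Among 9 corepressors and negative regulators, 2 were at least 2-fold higher and 1 was at least 2-fold lower after IMQ. By sign alone 5 were higher and 4 were lower. SOCS3, an inhibitor of JAK signalling, went from 40.8 in Ctrl to 1759 after IMQ and 1281 with IMQ+DMD. TNFAIP3, which restrains NF-κB, went from 1805 to 6862 and 7453. USP18, which is itself an interferon target and damps the type I receptor, went the other way, from 1430 to 424 and 363.

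Most interferon ligands were not measured. Of 12 analysed, 3 could be compared between IMQ and Ctrl, and 7 were well above background on no array. IFNA21 had 91.3, 41.6 and 53.9, which is 2.19-fold lower after IMQ, a call that was lost with normexp (-0.62). IFNB1, the early type I interferon, is named after its values were seen. It was well above background on the IMQ+DMD array only, at 32.8, and was at least 1.38-fold above IMQ and 1.99-fold above Ctrl. Of 8 receptor and JAK-STAT genes, IFNGR2 was 2.47-fold higher and IFNGR1 2.59-fold lower after IMQ, at 5665 against 14009 and 39421 against 15238. IFNGR2 fell short of 2-fold without normalization (0.98) and with bright spike-in scaling (0.79). No other gene of that list passed 2-fold in this comparison in the quantile-normalized values. JAK2, named after its values were seen, was past 2-fold lower without normalization (-1.14) and under both spike-in scalings.

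The genes bound through the ISRE are the classical readout of IRF9 and, in part, of IRF3 and IRF7. Of 18, 17 were lower and 1 was higher after IMQ than in Ctrl, and 5 were at least 2-fold lower and 0 at least 2-fold higher. The list median was -0.86, against -0.03 over all genes. Without normalization and with all spike-in controls 14 were at least 2-fold lower, and with the bright ones 15. Over all genes 3070, 2617 and 4834 were at least 2-fold lower in these settings, against 883 in the quantile-normalized values. IFIT2 was 2.95-fold lower (490 against 166), IFIT1 2.73-fold (1614 against 591), RSAD2 2.40-fold (769 against 320) and CMPK2 2.30-fold (1149 against 500). The second IFIT2 probe was lower too, as a bound (-1.37), and the second RSAD2 probe was well above background on no array. The second CMPK2 probe, at 25.5 and 31.2, was higher after IMQ instead. So was the second probe of MX2, named after its values were seen, at 206 and 219 (log2 0.09). The MX2 probe that was counted stood at -0.74. The exception by sign was IFI6, named after its values were seen, at 43850 and 50590. Relative to the median of all genes the list lay between -0.84 and -0.72 under each scaling and with normexp. IFI6 was lower too without normalization and under both spike-in scalings. Between IMQ+DMD and IMQ the list median was 0.06, against -0.02 over all genes, and none of the 18 was past 2-fold. With IMQ+DMD against Ctrl the list median was -0.80, against 0.00 over all genes. In that comparison 4 genes of the list were at least 2-fold lower, where 6.12% of 19831 genes were.

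The 12 genes tied to IRF1 and interferon-gamma went both ways. After IMQ 1 was at least 2-fold higher and 3 were at least 2-fold lower, with a list median of -0.54. By sign alone 4 were higher and 8 were lower. IDO1, which breaks down tryptophan, went from 78.9 in Ctrl to 3503 after IMQ and 1351 with IMQ+DMD, so it was 44.4-fold higher after IMQ and then 2.59-fold lower. CXCL9 was 2.92-fold lower (83.0 against 28.5), GBP1 2.80-fold (433 against 155) and CXCL10 2.14-fold (146 against 68.3). With normexp CXCL9 (-0.71) and CXCL10 (-0.67) were no longer past 2-fold. In the quantile-normalized values IDO1 was the only gene of the 8 lists past 2-fold between IMQ+DMD and IMQ, and it was past 2-fold under every scaling tried. With bright spike-in scaling IFNB1, whose IMQ spot was not well above background, and CXCL9 were also past 2-fold, upward. Over all genes that setting gave 1053 at least 2-fold higher and 43 at least 2-fold lower, with a median of 0.19. The quantile-normalized values gave 137 and 175, with a median of -0.02. In those values IFNB1 stood at 0.46, as a bound, and CXCL9 at 0.40. Neither gene was past 2-fold upward in this comparison under any other scaling.

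Of 5 inflammatory cytokines tied to IRF5, 3 could be compared and all 3 were more than 2-fold higher after IMQ. IL23A was 59.4-fold higher (405 against 24060) and IL6 7.73-fold higher (55.1 against 426). A second IL6 probe, at 13.0 in Ctrl, 16.1 after IMQ and 11.4 with IMQ+DMD, was well above background on no array. The log2 difference of TNF was 3.46 (695 against 7666). All 3 were lower after IMQ+DMD than after IMQ, with IL23A 1.90-fold, TNF 1.47-fold and IL6 1.56-fold lower. None of these passed 2-fold, but IL23A did with 75th-percentile scaling (-1.12), without normalization (-1.06) and with all spike-in controls (-1.06). IL12A and IL12B were not compared.

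**Figure D4:**
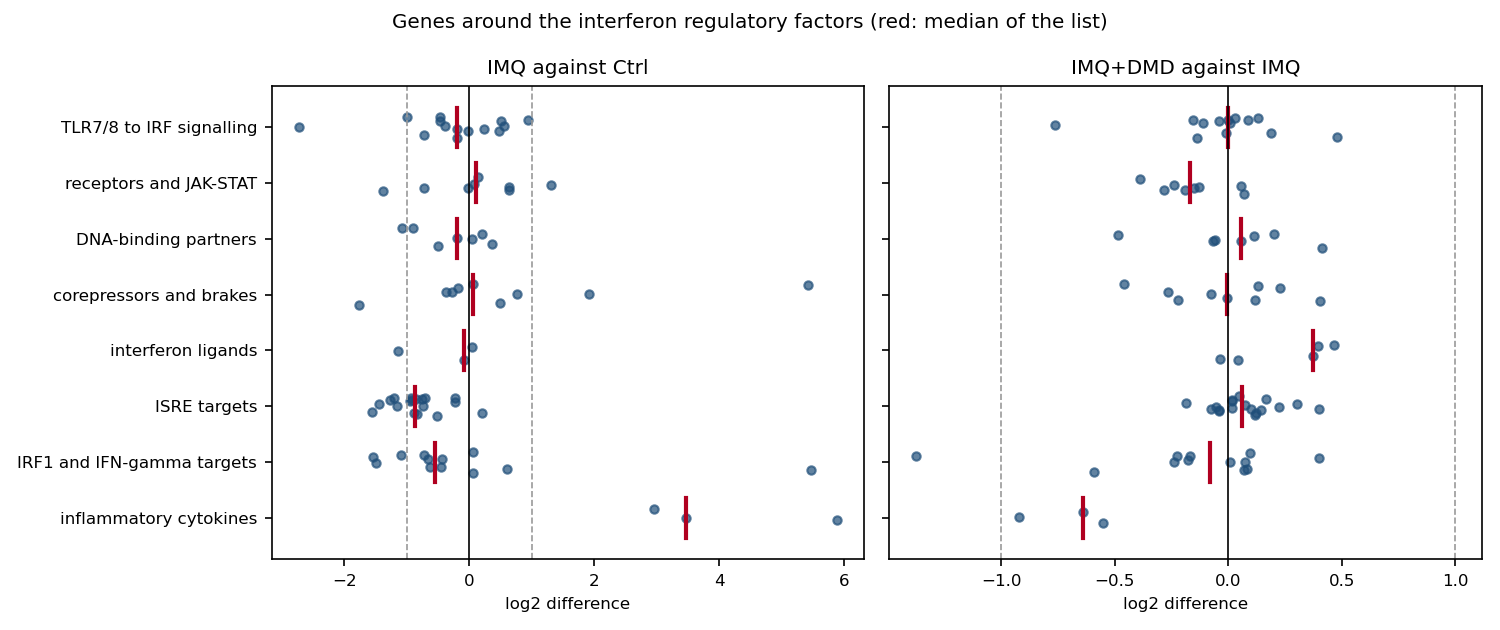
Log2 difference of the genes in the 8 lists, IMQ against Ctrl on the left and IMQ+DMD against IMQ on the right, 1 point per gene, with red bars at the list medians and dashed lines at 2-fold. On the left the ISRE targets are shifted to -0.86 and the inflammatory cytokines to 3.46, and on the right 1 gene, IDO1, lies past a dashed line.

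Promoter sequence from RefSeq (GRCh38.p14) was given for 5 members, and for IRF2, IRF3 and IRF7 it was not used. The 250 bases before the gene start are shown for the 3 members whose entry begins at that start. IRF4 is shown because it had the largest difference, and IRF1 and IRF9 because they share a motif. Capitals mark a match to a motif on either strand. The ISRE was searched as GAAANNGAAA, the GAS as TTCNNNGAA, the composite site of IRFs with ETS factors as GGAANNGAAA and the NF-κB site by its consensus. IRF1 lies at chr5:132490774-132491023 on the minus strand, IRF4 at chr6:391502-391751 on the plus strand and IRF9 at chr14:24161015-24161264 on the plus strand.
IRF1: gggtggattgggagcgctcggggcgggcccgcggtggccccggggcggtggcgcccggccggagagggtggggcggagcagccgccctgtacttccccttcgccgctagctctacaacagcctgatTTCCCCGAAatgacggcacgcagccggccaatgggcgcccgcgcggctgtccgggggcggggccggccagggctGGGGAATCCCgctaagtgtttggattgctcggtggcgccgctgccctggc
IRF4: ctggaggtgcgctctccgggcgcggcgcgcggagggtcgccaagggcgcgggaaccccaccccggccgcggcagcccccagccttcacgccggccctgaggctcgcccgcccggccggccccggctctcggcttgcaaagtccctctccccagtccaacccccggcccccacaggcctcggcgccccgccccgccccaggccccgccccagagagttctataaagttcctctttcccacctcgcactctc
IRF9: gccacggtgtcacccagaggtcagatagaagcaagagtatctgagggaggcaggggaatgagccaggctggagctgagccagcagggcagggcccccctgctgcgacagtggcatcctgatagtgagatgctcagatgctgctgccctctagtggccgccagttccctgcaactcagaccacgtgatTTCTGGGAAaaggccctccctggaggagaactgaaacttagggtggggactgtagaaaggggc

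IRF1 and IRF9 each hold 1 GAS match, and IRF1 holds 1 NF-κB match. IRF4 shows none of the 4 motifs. No member's entry holds an ISRE match, and 1 of the 4 entries of IRF5 holds an ETS composite match. Among 35116 promoters of the table, the ISRE was found in 3.02%, the GAS in 6.57%, the ETS composite in 2.41% and the NF-κB consensus in 9.96%. The IRF1 and IRF9 values above, 1.31-fold higher and within 1.04-fold after IMQ, are set beside the shared motif as a description.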

How the data were processed

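THP-1 RNA was labelled with Cy3 and hybridised to 3 one-colour Agilent arrays on 1 slide, scanned with Feature Extraction 10.5.1.1. The authors deposited per-spot processed signals and a table of raw and quantile-normalized linear intensities. The normalized intensities were used after log2. Outlier-marked spots were left out. A probe not well above background was set no lower than the dimmest signal rated well above background on that array, and such a difference is a bound. The probe with the highest mean stood for a gene. Calls were 2-fold. Alternatives were a re-computed quantile normalization (limma 3.58.1, R 4.3.3; median difference from the deposited values 0.0013 log2), 75th-percentile scaling, no normalization, 10 spike-in control probes, normexp with an offset of 50, no floor, both arrays above background, 1.5-fold and 4-fold, and the mean of probes. A further one, spike-in scaling limited to the 7 probes with log2 signal over 6, was added after its effect had been seen. Technical SDs came from probes with at least 8 of 10 spots kept. The scripts were tested on simulated data. Beside genes marked as named after their values were seen, the rule for named genes took every member, TLR7 and TLR8, up to 4 genes per list and comparison at 2-fold or more, and the 3 genes nearest to a member past 2-fold and measured on all arrays. Members and lists were chosen with earlier results of these data known. Of 87 listed genes, 85 were analysed, and a further gene is not reported here. B cell and T cell markers (4 of 4 each), plasmacytoid dendritic cell (2 to 3 of 3), keratinocyte (2 to 3 of 3) and fibroblast markers (2 of 3) were also rated above background, so that rating alone marks no cell type. The number of arrays limits the precision.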

Additional observations from a re-analysis of the deposited data

How the results depend on the processing

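Counts of members past 2-fold were recomputed under each alternative. After IMQ against Ctrl, the count of members higher was 0 when both arrays had to be above background (IRF4 drops out). The count lower was 2 with bright spike-in scaling (IRF2 joins IRF8) and 0 at 4-fold. With bright spike-in scaling 4834 genes in all were at least 2-fold lower, against 883 in the quantile-normalized values. Between IMQ+DMD and IMQ the count lower was 0 with bright spike-in scaling, with normexp and at 4-fold. Over all genes, 43 were at least 2-fold lower with bright spike-in scaling and 19 with normexp, against 175 in the quantile-normalized values. Between IMQ+DMD and Ctrl the count higher was 1 without a floor and at 1.5-fold (IRF4), and the count lower was 0 at 4-fold. The spike-in alternative was run in 2 forms. All 10 control probes, as planned, changed no count, and the bright 7, a restriction chosen after seeing the data, changed 2. For the 24 member differences, 197 of 214 alternative values had the sign of the reported one, and for the 24 list medians 191 of 216. Some scalings shift the median of all genes by up to -0.68, so a sign near 0 can turn by that shift alone. Relative to the median, IRF8 lay between -1.12 and -1.05 for IMQ against Ctrl. The largest move was 2.15 log2, for IRF4 without a floor. The cause of these moves was not tested. No paired analysis was possible because each group has 1 array. No replicate could be left out for the same reason, so the spread between cultures is not known.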
